A study of Mus musculus with 12 samples.

Results

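T cells with a receptor seen once are cells whose beta chain no other paired cell of the same library carried. They were taken from barcodes with exactly 1 distinct beta (TRB) chain and 1 or 2 alpha (TRA) chains. Cells of a library with the same TRB V segment, J segment and CDR3 bases formed a lineage, and cells that were alone in their lineage were kept. There were 9725 such cells of 19115 paired cells, and the other 9390 cells fell into 861 lineages of 2 or more cells. LNP-P20-mAb 1, 2 and 3 held 451, 303 and 1170 seen-once cells, or 13.8%, 15.0% and 41.2% of their paired cells. LNP-Ctrl 1, 2 and 3 held 1639, 2881 and 3281, or 49.2%, 73.4% and 87.8%. The cells were chosen by these counts of cells per beta chain, so the shares are given without a test. With every library thinned to 2016 paired cells the shares were 14.7%, 15.0% and 42.9% in LNP-P20-mAb libraries and 51.3%, 77.2% and 90.3% in LNP-Ctrl libraries.

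A T cell assembles its receptor genes once, by joining a V, a D (beta only) and a J segment, and bases are lost and added at random where the ends meet. The stretch over the join, the third complementarity determining region (CDR3), is the part of the receptor that faces the bound peptide. When a T cell divides, its daughters inherit the same join, so a join found in several cells marks a clone. A join found in 1 cell marks either a cell that had not divided or a clone of which 1 cell was caught. The alpha locus has a long row of J segments, whose numbers fall with distance from the V segments, and it can rearrange again on the same chromosome with V and J segments farther out on both sides.

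The libraries came from tumours of C57BL/6J mice aged 6 to 8 weeks that carried a subcutaneous MC38 tumour, a mouse colon carcinoma. The labels describe the MC38 cells of all groups as p53 knockout with a mutant p53, whose substitution they write in conflicting ways. Tumours of about 50 to 100 mm3 were injected on day 10 with 1 dose of 40 µg of LNP-P20-mAb in the first group or LNP-Ctrl in the second. CD45-positive leukocytes were sorted, about 10000 cells per sample, so T cells were not selected further, and the 6 gene expression samples of the series were not analysed here. There were 3 TCR libraries per treatment, with 5050 to 9982 chains and 85835 to 145847 unique molecular identifiers (UMIs, counts of captured transcripts) each. No chain of a gamma-delta receptor or an immunoglobulin was listed in any library. These lists held TRA and TRB chains only, so they do not tell whether such cells were among those sorted. Nothing in the labels ties each library to an animal of its own. The p-values therefore reflect library-to-library spread, part of which may be technical.

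The CDR3 of the beta chain with the most UMIs among seen-once cells is printed for each library, with the V and J named. Capitals mark bases that matched neither the V nor the J consensus. Besides bases added at the join, this stretch can hold D bases and V or J bases past the end of the consensus.
LNP-P20-mAb 1 TRBV29 TRBJ2-7: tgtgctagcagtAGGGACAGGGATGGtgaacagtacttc
LNP-P20-mAb 2 TRBV13-1 TRBJ2-7: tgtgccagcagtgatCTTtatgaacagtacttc
LNP-P20-mAb 3 TRBV17 TRBJ2-4: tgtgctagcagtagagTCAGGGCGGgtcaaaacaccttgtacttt
LNP-Ctrl 1 TRBV1 TRBJ2-5: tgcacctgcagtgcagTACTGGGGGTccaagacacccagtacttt
LNP-Ctrl 2 TRBV12-2+TRBV13-2 TRBJ2-1: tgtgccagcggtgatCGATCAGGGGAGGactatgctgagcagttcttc
LNP-Ctrl 3 TRBV15 TRBJ2-7: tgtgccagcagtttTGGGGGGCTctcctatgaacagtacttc
The marked stretch ran from 3 bases in LNP-P20-mAb 2 to 14 bases in LNP-P20-mAb 1, and TRBV17, TRBV1 and TRBV15 are the V segments with the highest UMI counts described with the UMIs.

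The alpha chains of 3 of these cells show the shorter join of that locus, which has no D segment. The capitals mark the same thing.
LNP-P20-mAb 1 TRAV14N-2 TRAJ23: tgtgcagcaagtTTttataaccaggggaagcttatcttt
LNP-P20-mAb 3 TRAV7-5 TRAJ38: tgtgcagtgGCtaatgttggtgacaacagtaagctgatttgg
LNP-Ctrl 3 TRAV6-5 TRAJ27: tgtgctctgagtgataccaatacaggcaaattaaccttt
The first pair had 2 unmatched bases each and the chain from LNP-Ctrl 3 had 0.

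Few seen-once cells were close copies of an expanded clone. A beta chain 1 base away from that of a larger lineage of the same library, with the same V, J and length, was carried by 16 of the 9725 cells. Of these 16 cells, 3 also shared an alpha chain with that lineage. The clearest case is a TRBV2 TRBJ2-7 chain of LNP-P20-mAb 1 beside a lineage of 28 cells, with which it shared its alpha chain. The capital marks the differing base, T27C with the lineage's base first, counted from 1 at the 5′ end of the CDR3.
seen-once cell: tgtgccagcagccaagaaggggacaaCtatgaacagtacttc
lineage of 28 cells: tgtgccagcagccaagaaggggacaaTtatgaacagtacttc
The same pair of chains recurred in LNP-P20-mAb 2, where the lineage had 2 cells and again shared the alpha chain. A neighbour that shared no alpha chain was a TRBV10 TRBJ2-3 chain of LNP-Ctrl 1 beside a lineage of 7 cells, with C14G.
seen-once cell: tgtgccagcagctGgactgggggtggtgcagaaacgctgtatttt
lineage of 7 cells: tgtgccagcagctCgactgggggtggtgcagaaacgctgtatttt

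Other ways of being less than alone were also counted. An alpha chain of the cell was present on a larger lineage of the same library for 46 cells (0.473%), and on another seen-once cell for 279 cells (2.87%). The beta chain was also present on barcodes left out of the paired cells, such as those with surplus or missing chains, for 161 cells (1.66%). The authors' clonotype number covered several barcodes for 144 cells. Of 18924 distinct cell barcodes, 189 occurred in more than 1 library, 1 of them with the same beta chain, and 190 seen-once cells sat on such barcodes.

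LNP-P20-mAb 1 and 2 stood apart by sharing receptors with each other. They had 30 seen-once beta chains in common, 28 of them with a shared alpha chain and 0 on the same barcode, which made up 6.65% of seen-once cells in the first library and 9.90% in the second. A further 5 cells of LNP-P20-mAb 1 and 8 of LNP-P20-mAb 2 carried the beta chain of a larger lineage of the other library. LNP-P20-mAb 3 shared 0 seen-once beta chains with either of them. Whether the pair came from 1 animal cannot be told from the labels, and results by treatment are given with the pair counted as 1 sample where that changed a call.

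Among seen-once cells, TRBV12-2 was used more in LNP-P20-mAb than in LNP-Ctrl libraries and TRBV3 and TRBV15 less. TRBV12-2, a member of the Vbeta5 family, made up 9.76%, 10.2% and 10.5% of seen-once beta chains in LNP-P20-mAb 1, 2 and 3, against 3.72%, 5.38% and 4.05% in LNP-Ctrl 1, 2 and 3. The LNP-P20-mAb libraries lay within a percentage point of each other and all above the LNP-Ctrl libraries. TRBV3 made up 3.55%, 2.97% and 1.11% in LNP-P20-mAb 1, 2 and 3, against 7.38%, 9.68% and 9.02% in LNP-Ctrl 1, 2 and 3. TRBV15 made up 0.443%, 0.660% and 1.37% in LNP-P20-mAb 1, 2 and 3, against 2.38%, 2.71% and 3.41% in LNP-Ctrl 1, 2 and 3. For both segments all LNP-P20-mAb libraries lay below all LNP-Ctrl libraries.

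Of 154 V and J segments with at least 30 seen-once chains, 3 passed an adjusted p of 0.05 (1.95%), 1 higher (0.649%) and 2 lower (1.3%), by edgeR's quasi-likelihood test with Benjamini-Hochberg adjustment over all 154. Unadjusted, 23 segments had a p under 0.05. TRBV12-2 was higher in LNP-P20-mAb by 1.2 ± 0.16 on the log2 scale (SE, edgeR adjusted p = 9.9e-05). TRBV3 fell by 2.08 ± 0.28 (edgeR adjusted p = 9.9e-05) and TRBV15 fell by 1.5 ± 0.35 (edgeR adjusted p = 0.0233). The next segments by p were TRBV31, the inverted V segment downstream of the constant genes, at -0.80 ± 0.21, and TRAV12-1 at 1.09 ± 0.30, both at an edgeR adjusted p of 0.0619. TRAV12-1 made up 1.61%, 2.36% and 3.02% of seen-once alpha chains in LNP-P20-mAb libraries and 0.915%, 1.26% and 1.25% in LNP-Ctrl libraries, which did not overlap. DESeq2 called TRBV3 and TRBV12-2 but not TRBV15.

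Single libraries moved these calls. Leaving out LNP-Ctrl 1 raised the count to 8 of 154. TRBV15 did not pass without LNP-P20-mAb 1 (edgeR adjusted p = 0.0927), without LNP-P20-mAb 2 (0.136), without LNP-Ctrl 3 (0.124) or with LNP-P20-mAb 1 and 2 summed (0.0523). TRBV3 stayed past the threshold without any single library, at -1.40 without LNP-P20-mAb 3 and -2.51 without LNP-P20-mAb 1, and TRBV12-2 ranged from 1.13 to 1.38. TRBV15 fell by 2.42 without LNP-P20-mAb 3.

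**Figure D1:**
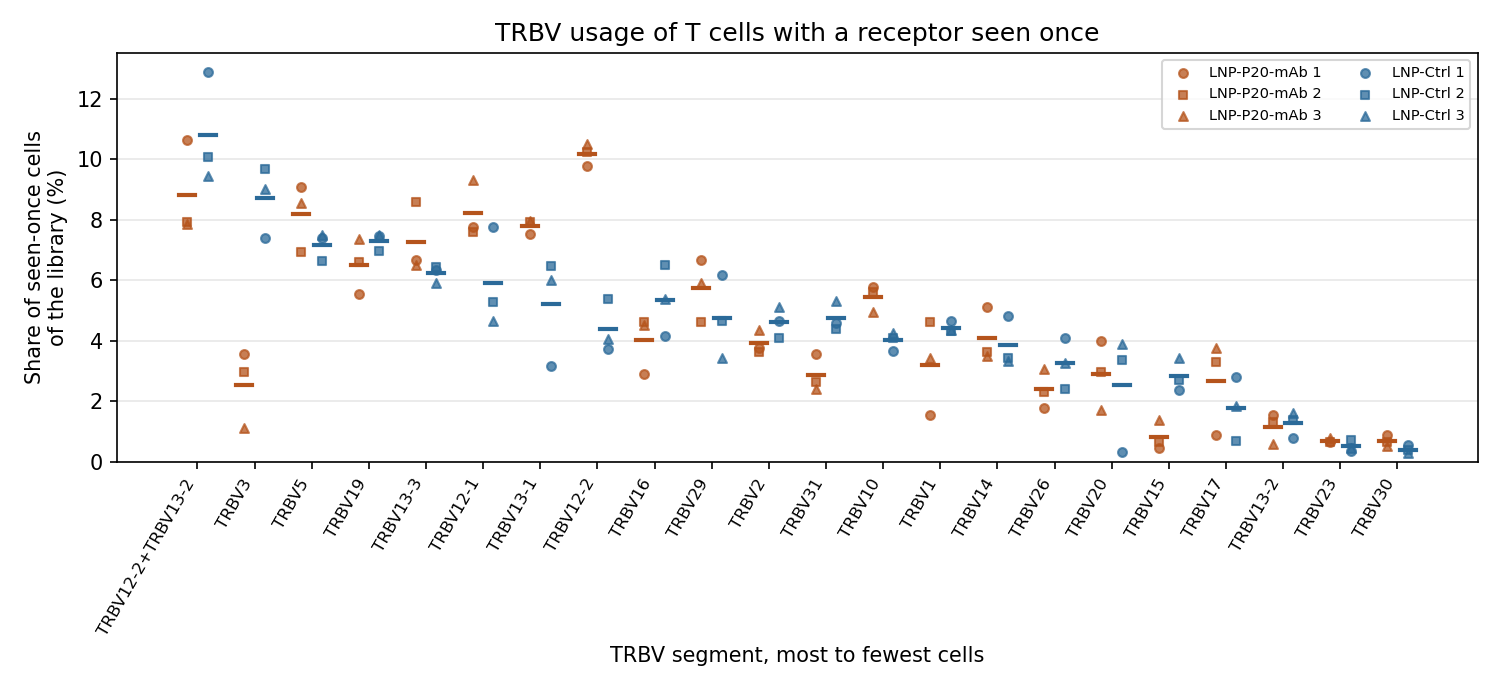
Share of seen-once cells of each library (y axis, percent) that used each TRBV segment (x axis, ordered by number of cells), with LNP-P20-mAb libraries in orange left of LNP-Ctrl libraries in blue and bars at the group means. TRBV12-2 lies at 9.76% to 10.5% in LNP-P20-mAb and at 3.72% to 5.38% in LNP-Ctrl libraries, and TRBV3 at 1.11% to 3.55% and 7.38% to 9.68%.

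Chains named jointly for TRBV12-2 and TRBV13-2 were the most frequent name, with 975 cells. They made up 8.81% ± 1.59 of seen-once beta chains in LNP-P20-mAb libraries and 10.8% ± 1.83 in LNP-Ctrl libraries (SD, n = 3 each). Their first complementarity determining region was that of chains named TRBV13-2 in 99.9% of cells. Counting them as TRBV13-2 left the same 3 segments called. The 3 segments of the Vbeta8 family, TRBV13-1, TRBV13-2 and TRBV13-3, lay between -0.45 and 0.54 on the log2 scale with none called, and their median of 0.17 stood beside a median of -0.03 over all 154 segments. That median leaves out the jointly named chains, which lay at -0.30 ± 0.16 (SE, edgeR adjusted p = 0.410). TRBV13-1 made up 7.54% to 7.95% of chains in LNP-P20-mAb libraries and 3.17% to 6.46% in LNP-Ctrl libraries.

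Some segments varied as much within a treatment as between treatments. TRBV20 made up 3.99%, 2.97% and 1.71% of seen-once beta chains in LNP-P20-mAb 1, 2 and 3, beside 0.305% in LNP-Ctrl 1 and 3.37% and 3.90% in LNP-Ctrl 2 and 3. TRBV17 made up 0.887%, 3.30% and 3.76% in LNP-P20-mAb 1, 2 and 3 and 2.81%, 0.694% and 1.83% in LNP-Ctrl 1, 2 and 3. For both segments the treatments overlapped.

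No J segment of the beta chain passed the test by treatment. TRBJ2-7 was the most used at 20.9% ± 1.95 of seen-once cells (SD, n = 6), followed by TRBJ2-1 at 13% ± 1.96 and TRBJ2-5 at 12.3% ± 0.525, and TRBJ1-5 was the least used at 2.48% ± 0.477. The second J cluster, which lies farther from the V segments and has a D segment of its own, held 74.7%, 68.3% and 69.4% of seen-once cells in LNP-P20-mAb 1, 2 and 3. It held 68.5%, 67.1% and 65.6% in LNP-Ctrl 1, 2 and 3, so the treatments overlapped by a narrow margin (exact permutation p = 0.2). None of the 6 TRBJ1 and 6 TRBJ2 segments was called, and their log2 differences lay between -0.36 and 0.27.

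Every beta chain with a named constant segment joined a J to the constant segment of the same cluster. TRBJ1 chains ran into TRBC1 in 3124 cells and TRBJ2 chains into TRBC2 in 6550 cells, with 0 of 9674 crossed. A D segment was named for 2288 cells (23.5%). TRBD2 lies between the clusters, and it was named in 6 chains with a TRBJ1 segment (0.894% of those with a D) and in 836 with a TRBJ2 segment (51.7%). TRBD1 was named in 665 TRBJ1 and 781 TRBJ2 chains. Chains with a TRBJ2 segment averaged 10.4 unmatched bases against 8.74 in TRBJ1 chains, and a CDR3 of 14.05 against 13.85 amino acids, which were not tested. TRBJ2 lay above TRBJ1 in unmatched bases in each of the 6 libraries, at 10.15 to 10.8 against 8.64 to 8.87.

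V and J segments of the beta chain combined mostly as their separate shares predict, with a small set of exceptions. Observed cells were compared with the product of V and J shares of the same library. The median absolute log2 ratio was 0.19 over 127 pairs with at least 30 expected cells, and 92.1% of pairs lay within 0.5 of 0. An F test on edgeR's quasi-likelihood fit took the library as replicate, with the spread pooled over pairs and not taken from each pair alone. By this test 8 of 127 pairs departed from expectation (6.3%), 4 higher and 4 lower (3.15% each), and 18 had an unadjusted p under 0.05. DESeq2 called 0, with 11 at an unadjusted p under 0.05.

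TRBV10 with TRBJ2-3 was the strongest excess, with 3, 2 and 8 cells in LNP-P20-mAb 1, 2 and 3 and 10, 15 and 25 in LNP-Ctrl 1, 2 and 3, 63 in all against 37.4 expected. It lay above expectation in 6 of 6 libraries (log2 ratio 0.75 ± 0.18 SE, edgeR adjusted p = 0.0028). TRBV12-2 with TRBJ1-2 had 49 cells against 30.4 expected and was above in 6 of 6 libraries (0.69 ± 0.22, edgeR adjusted p = 0.0297). TRBV12-1, the other Vbeta5 segment, was also frequent with TRBJ1-2, at 53 cells against 33.4 (0.67 ± 0.20, edgeR adjusted p = 0.0242), but above in 4 of 6 libraries. That pair had 8 cells against 9.05 expected in LNP-P20-mAb libraries and 45 against 24.3 in LNP-Ctrl libraries. The excess of TRBV12-1 with TRBJ2-1 was smaller, at 98 against 74.2 and above in 5 of 6 libraries (0.40 ± 0.13, edgeR adjusted p = 0.0466).

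The deepest deficits were TRBV5 with TRBJ1-2 and TRBV12-1 with TRBJ1-1, both below expectation in 6 of 6 libraries. TRBV5 with TRBJ1-2 had 0, 1 and 0 cells in LNP-P20-mAb libraries and 4, 4 and 9 in LNP-Ctrl libraries, 18 in all against 40.2 expected (log2 ratio -1.16 ± 0.35, edgeR adjusted p = 0.0242). TRBV12-1 with TRBJ1-1 had 27 cells against 58.4 (-1.11 ± 0.27, edgeR adjusted p = 0.0031). TRBV31 with TRBJ2-7 had 54 cells against 84.5 (-0.65 ± 0.17, edgeR adjusted p = 0.0066) and was below in 4 of 6 libraries, with 10 cells against 11.3 expected in LNP-P20-mAb libraries and 44 against 73.3 in LNP-Ctrl libraries. TRBV3 with TRBJ2-1 had 61 against 85.7 (-0.49 ± 0.16, edgeR adjusted p = 0.0325) and was below in 5 of 6. TRBV14 with TRBJ2-1 just missed the threshold at -0.88 ± 0.30.

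The number of pairs called fell most without 1 LNP-Ctrl library. It was 4 without LNP-Ctrl 1, 2 without LNP-Ctrl 2 and 0 without LNP-Ctrl 3, against 6 or 7 without any 1 LNP-P20-mAb library and 9 with LNP-P20-mAb 1 and 2 summed. Without LNP-Ctrl 3 the log2 ratio of TRBV10 with TRBJ2-3 was 0.70 (edgeR adjusted p = 0.0894) and that of TRBV31 with TRBJ2-7 was -0.42 (0.354).

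**Figure D2:**
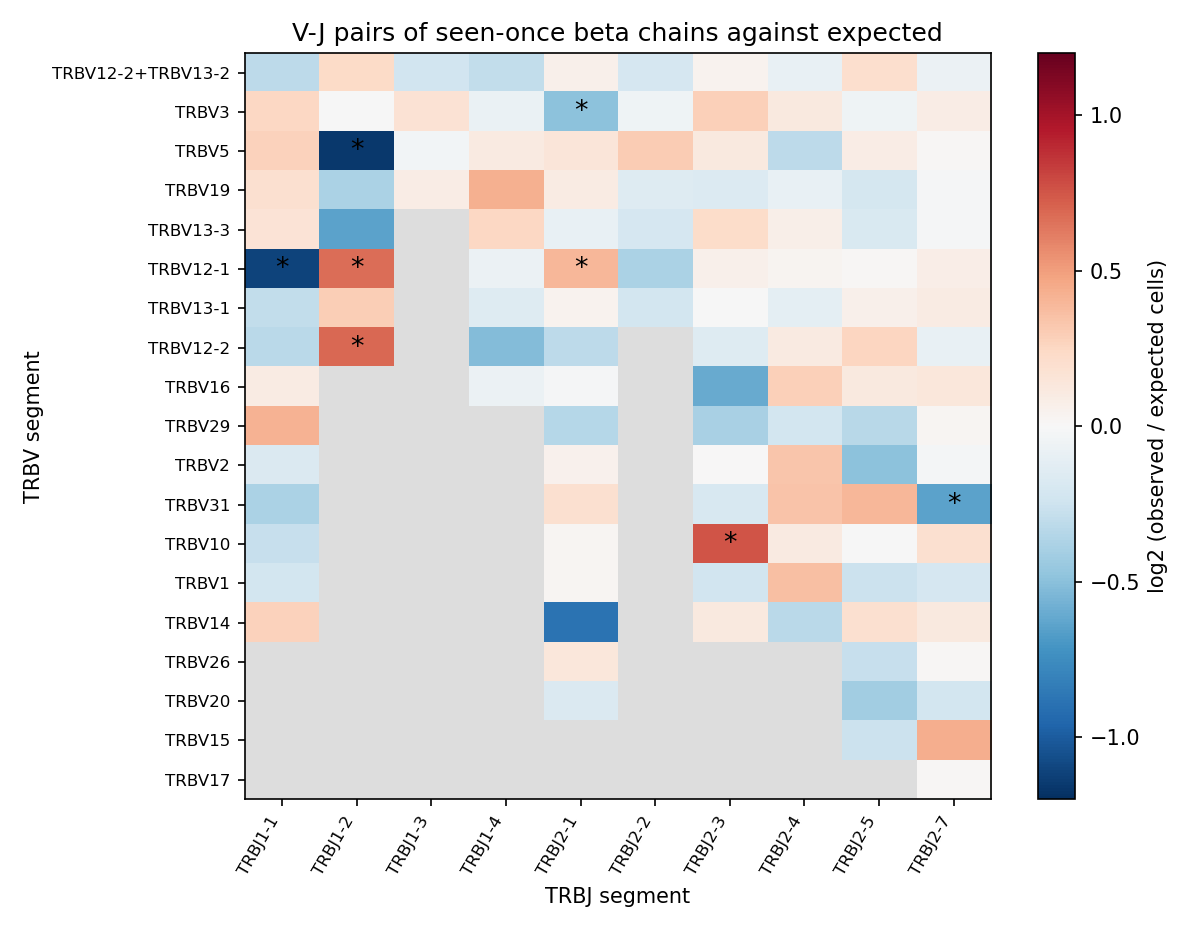
Log2 ratio of observed to expected seen-once cells (color, red above and blue below) for TRBV segments (rows) and TRBJ segments (columns), over 6 libraries, with grey where under 30 cells were expected. Asterisks mark the 8 pairs that passed an adjusted p of 0.05, of which TRBV5 with TRBJ1-2 is the lowest at -1.16 and TRBV10 with TRBJ2-3 the highest at 0.75.

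No V-J pair passed the test of a difference between treatments beyond the usage of its segments. Of the 127 pairs 0 passed (0.0%) by edgeR's quasi-likelihood test and 0 by DESeq2, with 5 and 3 at an unadjusted p under 0.05. The lowest p belonged to chains named jointly for TRBV12-2 and TRBV13-2 with TRBJ1-4, which had 1 cell against 8.92 expected in LNP-P20-mAb libraries and 50 against 53.8 in LNP-Ctrl libraries (edgeR adjusted p = 0.274). TRBV3 with TRBJ2-4 had 0 cells in LNP-P20-mAb libraries against 3.23 expected and 69 in LNP-Ctrl libraries against 60.3 expected (edgeR adjusted p = 0.460). TRBV31 with TRBJ2-5 had 15 against 6.48 and 55 against 46.6 (edgeR adjusted p = 0.907).

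V and J segments of the alpha chain did not combine freely, and their pairs differed along the locus. TRAV segments that lie next to the J segments were joined to the J segments nearest to them, which carry high numbers. TRAV21 was joined to TRAJ numbers 40 to 61 in 4, 2 and 5 chains of LNP-P20-mAb 1, 2 and 3 and in 15, 37 and 44 of LNP-Ctrl 1, 2 and 3, 107 in all against 34.8 expected. It was joined to numbers 2 to 19 in 2 chains against 30.7 expected. TRAV19 followed, with 109 chains against 36.9 at numbers 40 to 61 and 4 against 31.4 at numbers 2 to 19. Both families lay above expectation at the high numbers in 6 of 6 libraries and below at the low numbers in 6 of 6.

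Of 45 pairs of TRAV family and J zone, 25 departed from expectation (55.6%), 12 higher (26.7%) and 13 lower (28.9%), by edgeR's quasi-likelihood test with adjustment over the 45, and DESeq2 called 17. The log2 ratio at numbers 40 to 61 was 1.62 ± 0.14 for TRAV21, 1.56 ± 0.14 for TRAV19, 0.56 ± 0.11 for TRAV5 and 0.49 ± 0.079 for TRAV16. It was -0.61 for TRAV7 and -0.74 for TRAV8, both called, and these families leaned to numbers 2 to 19 at 0.22 and 0.43. At numbers 2 to 19 it was -3.94 ± 0.74 for TRAV21 and -2.97 ± 0.59 for TRAV19. TRAV1, at the far end of the locus, was above expectation at the middle numbers 20 to 39 (0.56 ± 0.18), which DESeq2 did not call. TRAV11 fell short there (-1.39 ± 0.31), with 75.9% of its chains at numbers 2 to 19. With 3 J zones a family above expectation in 1 zone must be below it in another, so the pairs of a family are not independent. Some families also pool copies from distant parts of the locus. A TRAJ number of 40 or more was used by 76.8% of chains named TRAV16, but by 18.75% of TRAV16N and 16.4% of TRAV16D-DV11. It was used by 64.9% of TRAV5-4, but by 8.51% of TRAV5N-4 and 8.33% of TRAV5-1. In TRAV7 it was used by 60.2% of TRAV7-6 and 10.9% of TRAV7D-2. The ratios of these families therefore do not hold for each copy.

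The order of TRAV genes in the RefSeq annotation of GRCm38.p6 held all 88 TRAV segments seen. Over the 77 segments with at least 30 chains, the mean TRAJ number rose with the rank along the locus, with a Spearman correlation of 0.682 across segments, which share libraries and are not independent. The rise was not even. The median of the segment means was 25.2 over ranks 1 to 40 and 23.6 over ranks 41 to 80, then 28.0 over ranks 81 to 100 and 43.6 over the ranks above 100, with bounds chosen after the values were seen. TRAV11 lay lowest among ranks 81 to 100, at 20.1. Within libraries the rank correlation over chains was 0.502, 0.447 and 0.387 in LNP-P20-mAb 1, 2 and 3 and 0.458, 0.447 and 0.457 in LNP-Ctrl 1, 2 and 3.

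The ends of the locus were set against each other as TRAV17, TRAV19 and TRAV21 on the J side (315 chains) and TRAV1 and TRAV2 on the far side (116 chains). Their mean TRAJ numbers were 47.5 and 17.3 in LNP-P20-mAb 1, 56.5 and 4.0 in LNP-P20-mAb 2, and 46.6 and 26.8 in LNP-P20-mAb 3. In LNP-Ctrl 1, 2 and 3 they were 46.9 and 24.1, 48.0 and 23.4, and 49.9 and 24.1. The J side was higher in 6 of 6 libraries, at 49.2 ± 3.75 against 19.9 ± 8.42 (SD, n = 6), which is the smallest p of the exact sign-flip permutation test (p = 0.031). LNP-P20-mAb 2 had 1 chain on the far side, and the difference was 29.3 with it and 24.6 without it. A TRAJ number of 40 or more was used by 83.2% of J-side chains and by 0.952% of far-side chains, as means over libraries.

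**Figure D3:**
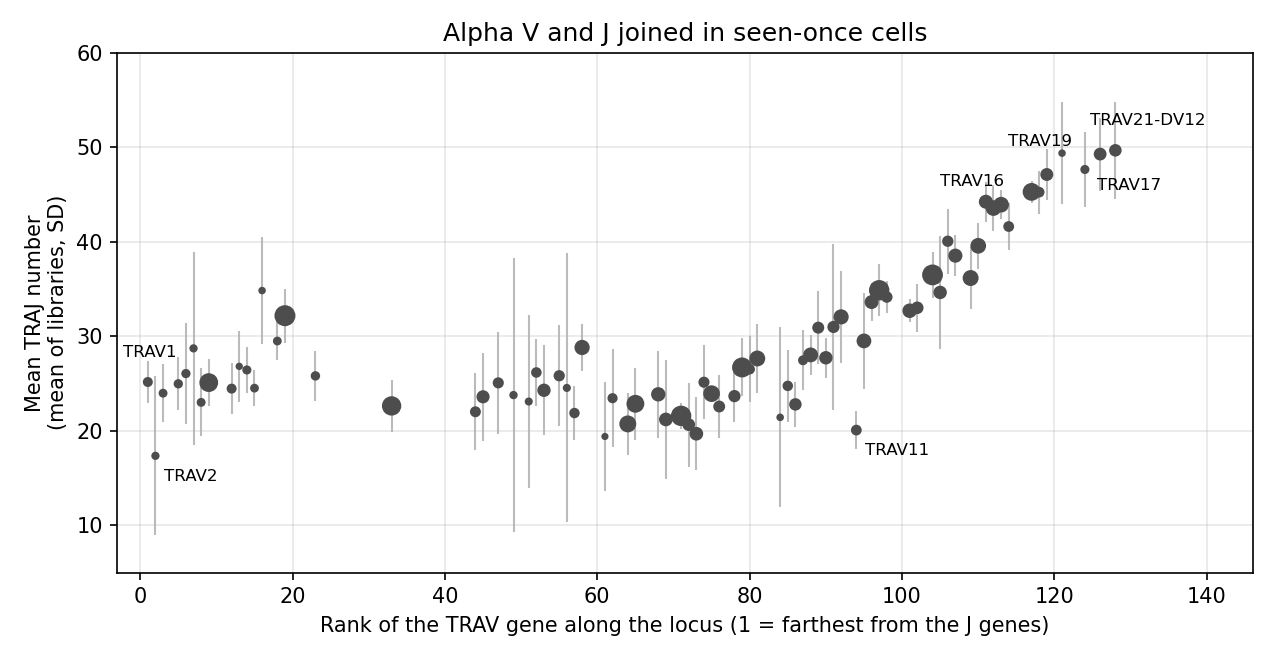
Mean TRAJ number of seen-once alpha chains (y axis, mean of the libraries with SD over libraries) for each TRAV segment with at least 30 chains, by rank of the V gene along the locus (x axis, rank 1 farthest from the J genes), with point area proportional to the number of chains. The median of the means is 25.2 over ranks 1 to 40 and 23.6 over ranks 41 to 80, and the means reach 49.7 for TRAV21-DV12. TRAV11 is the lowest of ranks 81 to 100 at 20.1, with TRAV4-2 near it at 21.4. TRAV2 at rank 2 lies lower, at 17.4.

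The mean TRAJ number of seen-once cells did not overlap between treatments, whose means differed by 0.972 in TRAJ number. It was 30.8, 30.7 and 30.7 in LNP-P20-mAb 1, 2 and 3, against 30.1, 29.5 and 29.7 in LNP-Ctrl 1, 2 and 3. The means were 30.7 ± 0.086 and 29.8 ± 0.319 (SD, n = 3 each), at the smallest p that 3 against 3 libraries allow (exact permutation p = 0.1). Adjusted over the 13 values compared by treatment the p was 0.325. The difference lay between 0.824 and 1.14 without any 1 library and was 0.965 with the mean of LNP-P20-mAb 1 and 2 as 1 sample.

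Alpha and beta V segments paired close to freely among the pairs frequent enough to test. Families with few chains, such as TRAV11 with 87, reached 30 expected cells with no TRBV segment, so their pairing was not tested here. Among cells with 1 alpha chain, 112 pairs of TRAV family and TRBV segment had at least 30 expected cells, and the median absolute log2 ratio of observed to expected cells was 0.19, with 95.5% of pairs within 0.5 of 0. By edgeR's quasi-likelihood test 0 of 112 pairs passed (0.0%), and 0 by DESeq2, with 16 and 3 at an unadjusted p under 0.05. This spread was like that of beta V-J pairs and unlike that of alpha V and J zones, where 73.3% of pairs lay within 0.5 of 0.

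Between treatments 0 of 112 alpha-beta pairs passed (0.0%) by edgeR and 0 by DESeq2, with 7 and 0 at an unadjusted p under 0.05. TRAV13 with TRBV29 had the lowest p, with 11 cells in LNP-P20-mAb libraries against 9.13 expected and 10 in LNP-Ctrl libraries against 26.8 expected (edgeR adjusted p = 0.564). TRAV3 with TRBV12-2 had 22 against 12.3 expected and 14 against 18.6 (edgeR adjusted p = 0.564). TRAV13 with TRBV3 had 0 against 2.94 and 54 against 54.2 (edgeR adjusted p = 0.626).

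By family, TRAV6 made up 14.1% ± 0.817 of seen-once alpha chains in LNP-P20-mAb libraries and 13.6% ± 0.667 in LNP-Ctrl libraries, and TRAV12 made up 13.2% ± 1.2 and 12.1% ± 0.893 (SD, n = 3 each). TRAV14 made up 7.80% ± 1.27 and 9.89% ± 1.16. TRAJ22 was the most used J segment, at 6.05% ± 1.05 in LNP-P20-mAb libraries and 6.54% ± 0.71 in LNP-Ctrl libraries. Copies of a TRAV gene with D or N in their names are nearly identical, and reads could be split between their names, so single copies are less certain than families.

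The CDR3 loops of seen-once receptors had nearly the same length in both treatments. Beta loops averaged 14.01 ± 0.046 amino acids in LNP-P20-mAb libraries and 13.98 ± 0.035 in LNP-Ctrl libraries (SD, n = 3 each, exact permutation p = 0.6), and alpha loops 13.73 ± 0.038 and 13.67 ± 0.040 (exact permutation p = 0.2). The most frequent beta length was 14 amino acids, at 33.5%, 37.0% and 30.9% of cells in LNP-P20-mAb 1, 2 and 3 and 31.5%, 31.1% and 30.1% in LNP-Ctrl 1, 2 and 3. Beta lengths ranged from 5 to 20 amino acids and alpha lengths from 5 to 40. Length varied with the segments. TRBV2 chains averaged 14.8 and TRBV5 chains 14.6 amino acids but TRBV20 chains 12.9, and TRBJ2-2 chains averaged 14.8 but TRBJ2-7 chains 13.3.

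**Figure D4:**
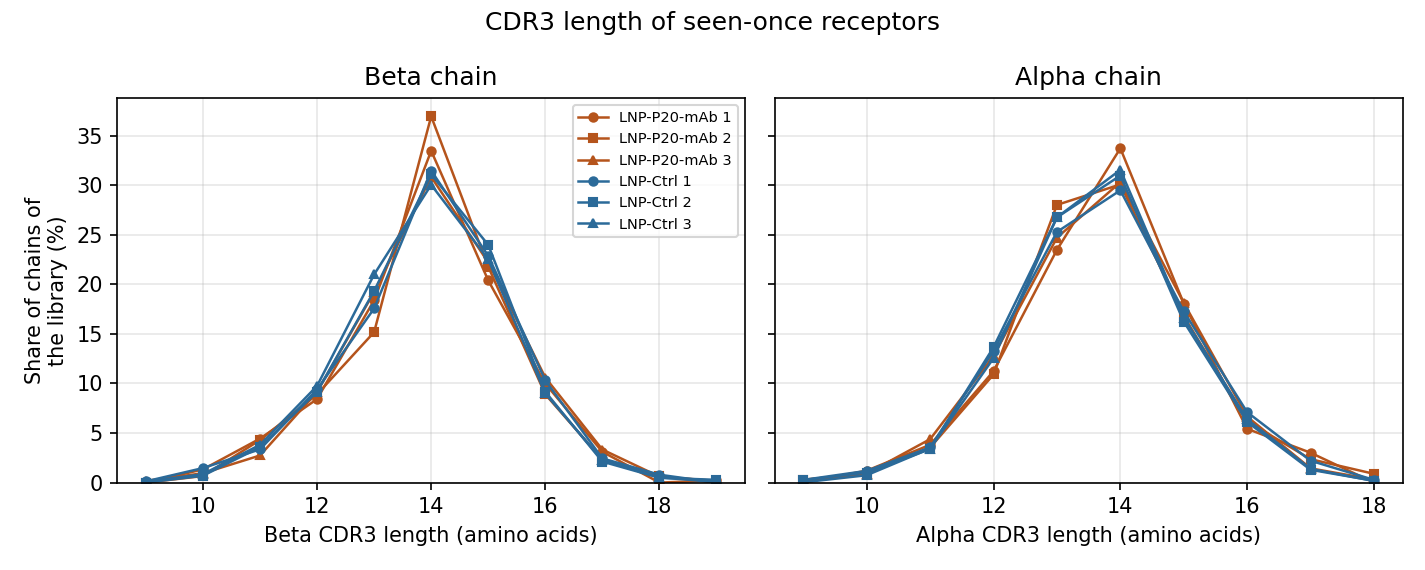
Share of seen-once chains of each library (y axis, percent) by CDR3 length in amino acids (x axis), beta on the left and alpha on the right, LNP-P20-mAb in orange and LNP-Ctrl in blue. The 6 curves peak together at 14 amino acids, highest in LNP-P20-mAb 2 at 37.0% of beta chains.

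The stretch matched to neither V nor J was much longer in beta than in alpha chains. Unmatched bases averaged 9.97 ± 0.190 per beta CDR3 in LNP-P20-mAb libraries and 9.80 ± 0.076 in LNP-Ctrl libraries (exact permutation p = 0.2, n = 3 each), of which D bases are a part. Alpha chains averaged 2.57 ± 0.130 and 2.5 ± 0.028 (exact permutation p = 0.4). No unmatched base was found in 0.524% of beta chains, and in 16.2% to 18.8% of alpha chains by library. The count rests on a consensus of the chains themselves, not on germline genes. An added base that happens to match V or J is therefore not counted, and a V or J base past the consensus is.

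The centre of the beta loop, without its first 4 and last 4 residues, was rich in glycine, the residue that D segments encode in most frames. Glycine made up 22.4% ± 0.290 of centre residues (SD, n = 6) and was present in 79.8% ± 1.01 of cells, and aspartate followed at 9.07% ± 0.433. On the Kyte-Doolittle scale, where higher means more hydrophobic, the centre averaged -1.0, -1.01 and -1.03 in LNP-P20-mAb 1, 2 and 3, against -1.05, -1.06 and -1.15 in LNP-Ctrl 1, 2 and 3. The treatments did not overlap (exact permutation p = 0.1, adjusted over 13 values 0.325), though the nearest libraries were 0.017 apart. The difference was 0.071, and 0.041 without LNP-Ctrl 3. Net charge was -0.462 ± 0.058 in LNP-P20-mAb libraries and -0.468 ± 0.032 in LNP-Ctrl libraries (exact permutation p = 1.0).

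Residue by residue, 7 of 20 did not overlap between treatments (35%), which were not tested one by one. Tryptophan made up 3.61% ± 0.369 of centre residues in LNP-P20-mAb libraries and 2.66% ± 0.410 in LNP-Ctrl libraries, and tyrosine 5.52% ± 0.557 and 4.59% ± 0.513 (SD, n = 3 each). Valine also lay higher in LNP-P20-mAb libraries, at 2.13% and 1.84%. Cysteine did too, at 0.180% ± 0.090 and 0.062% ± 0.041. It was present in only 0.728% ± 0.547 of cells (SD, n = 6), so its shares rest on few residues. Glutamine made up 5.90% ± 0.311 in LNP-P20-mAb libraries and 6.63% ± 0.485 in LNP-Ctrl libraries, threonine 5.83% ± 0.313 and 6.50% ± 0.176, and glutamate 4.4% ± 0.061 and 4.82% ± 0.462. Of the 13 values compared by treatment 3 did not overlap (23.1%), and the lowest adjusted p over the 13 was 0.325.

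Seen-once cells had fewer UMIs per chain than cells of larger lineages in all 6 libraries. The median number of TRB UMIs was 15, 16 and 17 in seen-once cells of LNP-P20-mAb 1, 2 and 3 against 20, 21 and 18 in their larger lineages. In LNP-Ctrl 1, 2 and 3 it was 18, 13 and 14 against 24, 16 and 18. The mean over libraries was 15.5 ± 1.87 against 19.5 ± 2.81, a difference of -4.0 ± 1.79 (SD, n = 6, exact sign-flip permutation p = 0.031, the smallest that 6 libraries allow). TRA UMIs differed the same way, at 7, 8, 7, 8, 5 and 5 against 8, 9, 9, 11, 8 and 7 in the same order, a difference of -2.0 ± 0.894 (exact sign-flip permutation p = 0.031). With 1 value per lineage in place of 1 per cell the TRB difference was -2.38 and the TRA difference -1.58, each lower in 5 of 6 libraries (exact sign-flip permutation p = 0.0625). Leaving out any 1 library gave -4.6 to -3.6 for TRB and -2.2 to -1.8 for TRA.

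The size of the gap did not differ detectably between treatments. For TRB it averaged -3.67 in LNP-P20-mAb libraries and -4.33 in LNP-Ctrl libraries (exact permutation p = 0.8, n = 3 each), and for TRA -1.33 and -2.67 (exact permutation p = 0.2). Lineages of exactly 2 cells, just outside the rule, had 16.4 ± 2.01 TRB and 7.58 ± 1.74 TRA UMIs beside 15.5 ± 1.87 and 6.67 ± 1.37 in seen-once cells. Their beta loops averaged 13.98 ± 0.116 amino acids and 9.89 ± 0.328 unmatched bases, beside 14 ± 0.040 and 9.89 ± 0.158 in seen-once cells. Against lineages of 20 or more cells the TRB difference was -6.92. Reads per UMI were 125 to 237 in seen-once cells and 130 to 246 in larger lineages, and whether capture or transcript number moved with the gap was not tested.

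**Figure D5:**
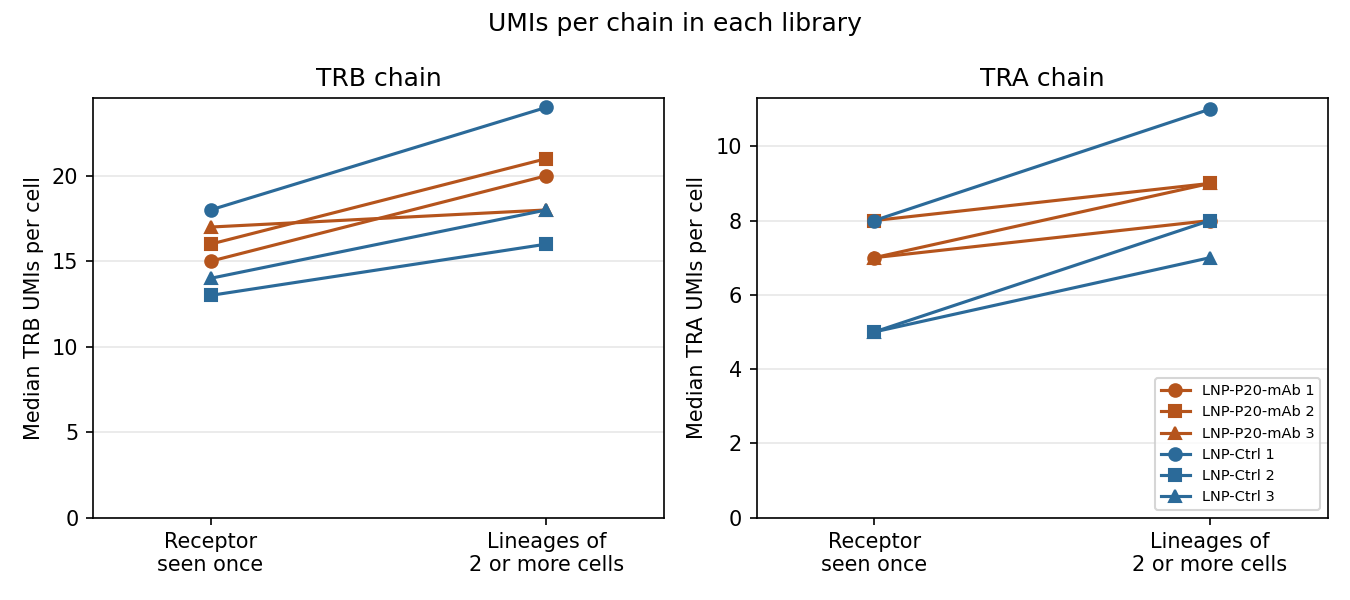
Median TRB (left) and TRA (right) UMIs per cell (y axes) in seen-once cells and in cells of lineages of 2 or more, 1 line per library, LNP-P20-mAb in orange and LNP-Ctrl in blue. All 6 lines rise to the right in both panels, by 1 to 6 TRB UMIs and by 1 to 3 TRA UMIs.

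Between treatments the UMIs of seen-once cells overlapped. Medians were 16.0 ± 1.0 TRB UMIs in LNP-P20-mAb libraries and 15.0 ± 2.65 in LNP-Ctrl libraries (SD, n = 3 each, exact permutation p = 0.7), and 7.33 ± 0.577 and 6.0 ± 1.73 TRA UMIs (exact permutation p = 0.4). Within libraries the spread was wide, with 5th percentiles of 4 or 5 and 95th percentiles of 38 to 55 TRB UMIs. The beta chain had more UMIs than the alpha chain in 77.6% to 85.9% of cells, and the 2 counts were only loosely related, with a rank correlation of 0.201 to 0.331 by library. An alpha chain with under 3 UMIs was held by 9.31%, 6.60% and 8.38% of seen-once cells in LNP-P20-mAb 1, 2 and 3 and by 7.20%, 16.1% and 13.8% in LNP-Ctrl 1, 2 and 3.

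TRB UMIs depended on the V segment. Relative to the median of its library, TRBV17 chains had 1.93 times, TRBV15 chains 1.75 times, TRBV1 chains 1.55 times and TRBV12-2 chains 1.38 times as many UMIs, as means over 6 libraries. TRBV2 chains had 0.436 times, TRBV12-1 chains 0.764 times and TRBV19 chains 0.782 times, each below the library median in 6 of 6 libraries. Chains named TRBV13-2 alone, as few as 4 cells in a library, had 0.599 times, while chains with the joint name TRBV12-2+TRBV13-2 had 1.03 times and were below in 2 of 6 libraries. TRBV12-1 and TRBV12-2 thus differed in UMIs within the Vbeta5 family, at 11.8 ± 1.72 and 21.3 ± 3.72 (SD, n = 6). Of the segments that differed by treatment, TRBV12-2 and TRBV15 had many UMIs and TRBV3 had 0.893 times the library median. With only cells of 3 or more UMIs on each chain the same 3 segments passed among 4 called.

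The alpha chains of seen-once cells, which the rule did not use, were compared with those of larger lineages in the same library. The mean TRAJ number was higher in seen-once cells in 6 of 6 libraries, at 30.25 ± 0.572 against 28.2 ± 1.42 (SD, n = 6). The difference was 3.94, 4.67 and 1.16 in LNP-P20-mAb 1, 2 and 3 and 1.77, 0.198 and 0.821 in LNP-Ctrl 1, 2 and 3. Its p was the smallest of the exact sign-flip permutation test (p = 0.031), and 0.125 adjusted over the 4 values compared. Each distinct alpha chain of a larger lineage was counted once here, whatever the lineage's number of cells. Alpha length was 13.70 against 13.68 amino acids (exact sign-flip permutation p = 0.219) and unmatched alpha bases 2.53 against 2.42 (p = 0.25, the same exact test).

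A second alpha chain was held by 10.4%, 11.9% and 13.1% of seen-once cells in LNP-P20-mAb 1, 2 and 3 and by 13.4%, 12.8% and 14.5% in LNP-Ctrl 1, 2 and 3. The treatments overlapped (11.8% ± 1.33 and 13.6% ± 0.884, SD, n = 3 each, exact permutation p = 0.2). Counting each larger lineage once, by the median of its cells, 12.9% ± 2.46 of larger lineages held a second alpha chain. Beside them stood 12.7% ± 1.40 of seen-once cells (n = 6, exact sign-flip permutation p = 0.906). Counted by cell, the share in larger lineages was 13.2% ± 9.20 and ranged from 6.95% to 31.4% by library. In seen-once cells with a pair of alpha chains the second had a median of 4 to 6 UMIs and the first 7 to 11.

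An alpha chain that was also on a larger lineage of the same library was rare. It was found in 5 of 451, 2 of 303 and 11 of 1170 cells of LNP-P20-mAb 1, 2 and 3, or 1.11%, 0.660% and 0.940%. In LNP-Ctrl 1, 2 and 3 it was found in 8 of 1639, 12 of 2881 and 8 of 3281 cells, or 0.488%, 0.417% and 0.244%. The treatments did not overlap (exact permutation p = 0.1, adjusted over 13 values 0.325), and with only cells of 3 or more UMIs per chain the p was 0.3. Larger lineages held 2812, 1713 and 1673 cells in LNP-P20-mAb 1, 2 and 3 and 1694, 1042 and 456 in LNP-Ctrl 1, 2 and 3, with treatments that overlapped, and their part in the result was not tested.

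Most seen-once beta receptors were found in 1 library. By V, J and amino acid sequence, 9451 receptors occurred as seen-once cells of 1 library, 113 of 2, 5 of 3 and 1 of 4. Those in 2 or more libraries numbered 119, and 92 with LNP-P20-mAb 1 and 2 counted as 1 library. The most widespread was a TRBV10 TRBJ2-3 receptor with 1 seen-once cell in each of LNP-P20-mAb 1, LNP-P20-mAb 2, LNP-Ctrl 1 and LNP-Ctrl 3, written in 2 base sequences. Capitals again mark bases that matched neither consensus.
LNP-P20-mAb 1, LNP-P20-mAb 2 and LNP-Ctrl 3: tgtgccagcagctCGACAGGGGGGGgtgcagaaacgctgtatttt
LNP-Ctrl 1: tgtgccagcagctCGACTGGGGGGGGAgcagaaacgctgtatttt
Its V-J pair is the one with the strongest excess over expectation. A receptor of the jointly named V with TRBJ2-3 occurred in 3 libraries with 4 base sequences, given with capitals as before.
LNP-P20-mAb 2: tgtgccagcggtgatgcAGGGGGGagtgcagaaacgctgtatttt
LNP-Ctrl 2, first cell: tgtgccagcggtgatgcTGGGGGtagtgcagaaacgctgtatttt
LNP-Ctrl 2, second cell: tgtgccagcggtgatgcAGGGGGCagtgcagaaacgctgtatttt
LNP-Ctrl 3: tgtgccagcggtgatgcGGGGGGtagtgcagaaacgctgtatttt

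The beta joins of receptors shared between libraries are given without a test. The 252 seen-once cells whose receptor was also a seen-once receptor of another library averaged 8.17 unmatched bases and 13.5 amino acids, beside 9.89 bases and 14 amino acids in the other 9473 cells. With LNP-P20-mAb 1 and 2 counted as 1 library, 198 such cells were left and averaged 8.03 unmatched bases. The share of seen-once cells whose beta amino acid receptor was in another library at all was 10.6%, 18.2% and 2.56% in LNP-P20-mAb 1, 2 and 3 and 2.93%, 1.87% and 2.07% in LNP-Ctrl 1, 2 and 3 (exact permutation p = 0.2). With LNP-P20-mAb 1 and 2 not set against each other these 2 libraries were at 3.33% and 6.93%, so much of their share was with each other.

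Cells with an invariant alpha chain were part of the seen-once cells. TRAV11 joined to TRAJ18, the alpha chain of invariant natural killer T cells, was carried by 56 of 9725 seen-once cells (0.576%, exact 95% binomial interval 0.435% to 0.747%, counting error only). Of 861 larger lineages pooled over the 6 libraries 0 carried it, which allows up to 0.348%. Each lineage was counted once, since its cells share a beta chain, though not always an alpha chain. The difference from seen-once cells was not tested. By library it was 2, 2 and 6 cells in LNP-P20-mAb 1, 2 and 3 and 12, 22 and 12 in LNP-Ctrl 1, 2 and 3. Of the 56, 50 shared 1 alpha loop and 38 had a beta chain with a TRBV13 name. The share of TRBV13 names was not compared with that over all seen-once cells. TRAV1 joined to TRAJ33, the alpha chain of mucosal-associated invariant T cells, was carried by 16 seen-once cells and 1 of 861 larger lineages. In that lineage 1 cell carried it. An example of each is given, with the capital at the unmatched base. The V consensus of TRAV11 was 45 bases long and ran through the whole TRAV11 TRAJ18 CDR3. The capital in that chain therefore marks a difference from the consensus of the full join.
TRAV11 TRAJ18, LNP-Ctrl 3: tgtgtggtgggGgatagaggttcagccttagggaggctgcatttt
TRAV1 TRAJ33, LNP-Ctrl 2: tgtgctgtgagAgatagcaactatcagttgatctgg
TRAV11 had 87 seen-once alpha chains in all. Its mean TRAJ number was the lowest among segments of ranks 81 to 100 with at least 30 chains.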

How the data were processed

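The authors deposited, per the file headers, 1 list of assembled TCR chains per library with counts of reads and UMIs per chain, which are raw counts. Cell Ranger 8.0.1 is listed in the submitters' processing notes. Genome builds are listed there with no stated use, and positions are left out. The V(D)J reference was not given in the sources used here. Repeats of a chain within a barcode were merged. Barcodes with surplus TRB or TRA chains, which may be doublets, were dropped, while doublets with 1 TRB chain would remain. The cells and the gene lists were chosen with earlier results of these data known. Sequences are those of the deposited chains. TRB lies on chromosome 6 and TRA on chromosome 14.

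Counts per segment or pair were fitted with edgeR 4.0.16 (quasi-likelihood) in R 4.3.3, with the library's chains of the locus, or the cells expected from the product of shares, as offset. A segment or pair needed 30 chains or expected cells over the 6 libraries, and Benjamini-Hochberg adjustment ran over every feature of a table at a threshold of 0.05. For pairs against expectation the quasi-likelihood F statistic compared the fit at a ratio of 1 with the fitted ratio. Its degrees of freedom drew on the spread over all pairs of the table. SEs are the log2 value divided by the square root of F. DESeq2 1.42.0 was an alternative. The fits were run on simulated counts drawn from a negative binomial model with a fixed dispersion and the offsets of these data. That check does not cover other kinds of spread. Bases of a CDR3 were matched inward from both ends to a V and a J consensus, which went on while at least 50.0% of chains shared the next base. Values of 3 against 3 libraries were compared by exact permutation over 20 assignments, two-sided, and within libraries by exact sign flips over 64 flips, two-sided. Python 3.11.15 ran pandas 2.3.3 and numpy 2.4.6, with scipy 1.17.1 for permutations and matplotlib 3.10.9 for figures.

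Named features were those called (up to 12 segments, up to 6 pairs each way), or else those of lowest p (5 segments, 3 pairs), besides listed segments. Alternatives were another tool, no minimum, each library left out, LNP-P20-mAb 1 and 2 as 1 sample, lineages over every barcode, a minimum of 3 UMIs, other scaling, other names, and the replicate number as a block. Libraries held 2016 to 3923 paired cells, and a count of 0 among the 303 seen-once cells of the smallest allows up to 0.990%. Such limits and all intervals cover counting error only. PCR and capture limits were not modelled.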

Additional observations from a re-analysis of the deposited data

How the results depend on the processing

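Limits: 2 LNP-P20-mAb libraries hold 451 and 303 seen-once cells, so pairs by treatment rest on few cells there, and exact permutation of 3 against 3 libraries cannot go below p = 0.1. TRBV-TRBJ pairs against expectation numbered 8, with 0 by DESeq2, 13 with no minimum, and 0 to 7 without 1 library. TRAV-TRBV pairs against expectation numbered 0, and 3 with no minimum. Segments by treatment numbered 3 and ranged from 2 to 8 without 1 library. The replicate numbers did not pair the libraries (correlations of same-numbered deviations -0.033, -0.075 and -0.057 over 154 segments), and with the replicate block 1 segment was called, TRBV12-2. The block gave 0 calls for both pair tables by treatment. The gap in TRB UMIs was -2.38 with 1 value per lineage, -3.8 with the mean of LNP-P20-mAb 1 and 2 as 1 sample, and -4.6 to -3.6 without 1 library. The gap in TRA UMIs was -1.58 with 1 value per lineage, -2.33 against lineages of 20 or more cells, -393 with reads in place of UMIs, -2.2 with that mean, and -2.2 to -1.8 without 1 library. The gap in mean TRAJ number to larger lineages was 2.20 against lineages of 3 or more cells, 1.65 with that mean, and 1.58 to 2.47 without 1 library. The exact sign-flip permutation p was 0.0625 with 5 libraries or samples, the smallest possible. With 6 libraries it was also 0.0625 for 1 value per lineage (both chains), for TRA UMIs against lineages of 20 or more cells and for TRA reads, each lower in 5 of 6 libraries, and 0.0938 for the mean TRAJ number against lineages of 3 or more cells. The difference between the ends of the TRAV locus was 24.6 to 31.2 without 1 library, with the same p. Directions reversed for alpha length against lineages of 3 or more cells (-0.073 in place of 0.017). They also reversed for the share with a second alpha chain (-0.267), at 0.207 with that mean and -1.02 to 0.452 without 1 library, and for net charge by treatment (0.0059), at -0.0052 thinned and -0.024 to 0.033 without 1 library. Of the results with named alternatives 566 planned values kept direction and call, 67 lost the call, 5 gained it, 8 moved and 7 reversed. The use of the mean of LNP-P20-mAb 1 and 2 within libraries and the pair left unset against each other were chosen after the data were seen.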
